A study of Mus musculus with 19 samples.

Results

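The immunity-related GTPases (IRG proteins) are interferon-inducible GTPases of the mouse, and 7 of their genes are described here: *Irgm1*, *Irgm2*, *Igtp*, *Iigp1*, *Tgtp1*, *Tgtp2* and *Ifi47*. They were chosen by name, matched to the Ensembl identifiers of the count table through GENCODE M39, and were 7 of the 56980 genes counted. All 7 passed the filter on low counts, which left 18739 genes for testing. The RNA came from CD11b+ cells, the microglia and other myeloid cells of the brain, isolated with magnetic beads (MACS) from male mice of 3 to 4 months after removal of the olfactory bulb and cerebellum. The groups were *PARK7*/DJ-1 KO and wildtype littermates 6 h after 1 intraperitoneal injection of lipopolysaccharide (LPS, a bacterial cell wall component, at 4 μg/g body weight) or of PBS, with 5 KO and 5 wildtype mice after LPS and 5 KO and 4 wildtype mice after PBS. KO mice carried the gene trap Gt(XE726)Byg in *Park7*, which encodes the oxidative stress protein DJ-1, on a line that had been backcrossed to C57BL/6NCrl, and the gene is disrupted in all cells of the body.

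IRG proteins act in the defence of a cell against parasites and bacteria that live inside vacuoles. Effector members, called GKS proteins after a glycine-lysine-serine stretch in their nucleotide-binding loop, coat the vacuole membrane and break it open. Regulator members, called GMS proteins because a methionine replaces the lysine, sit on the membranes of the cell's own organelles and keep the effectors in the inactive, GDP-bound state there. Transcription of the family is driven from gamma-activated sites (GAS) and, through IRF factors, from interferon-stimulated response elements (ISRE). LPS is known to reach the family through the interferons that it induces.

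The 3 regulators and the effectors differ in the coding sequence of the nucleotide-binding loop, which is shown because it defines the 2 classes. It was read from GRCm39 with the GENCODE gene models, for the 6 members that lie on chromosome 11, with the seventh codon of the stretch in capitals (ATG encodes methionine, AAG lysine):
Irgm1 (chr11:48757588-48757611, minus strand): ggggactctggcaatggcATGtca
Irgm2 (chr11:58110521-58110544, plus strand): ggggactctggcaatggcATGtca
Igtp (chr11:58097101-58097124, plus strand): ggggactctggcaatggcATGtca
Tgtp1 (chr11:48878494-48878517, minus strand): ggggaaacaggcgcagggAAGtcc
Tgtp2 (chr11:48950361-48950384, minus strand): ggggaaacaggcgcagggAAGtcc
Ifi47 (chr11:48986475-48986498, plus strand): gggcagtctgggactggcAAGtcc
The 3 regulators were identical over this stretch, and so were *Tgtp1* and *Tgtp2*.

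The promoters bear on a family that is reached through interferon, and they were searched for short motifs in both strands. The RefSeq promoter table (GRCm38.p6, 250 bases before to 50 bases after each start) was used, and the stretches were placed on GRCm39 by exact match. The ISRE core, GAAA followed by any 2 bases and GAAA, was found in the promoters of 5 of the 6 members searched (*Irgm1*, *Irgm2*, *Igtp*, *Tgtp1* and *Tgtp2*), against 3.44% of 32851 promoters. The GAS core, TTCNNNGAA, was found in 4 of 6, against 8.30%. In those 4 the GAS core was followed by any 2 bases and the ISRE core. This joined arrangement was held by 5 of the 32851 promoters searched, those of *Irgm2*, *Igtp*, *Tgtp1*, *Tgtp2* and the neighbouring gene *Gm12185*. No other spacing of the 2 cores was searched, and the members are related genes, so their matches are not independent. A joined match is by its letters also a match to each core. The stretches around the matches are printed with the matched bases in capitals:
Irgm1 (chr11:48762248-48762296, minus strand): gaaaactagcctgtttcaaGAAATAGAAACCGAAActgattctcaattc
Irgm2 (chr11:58105714-58105773, plus strand): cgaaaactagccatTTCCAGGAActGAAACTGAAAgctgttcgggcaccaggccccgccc
Igtp (chr11:58090323-58090381, plus strand): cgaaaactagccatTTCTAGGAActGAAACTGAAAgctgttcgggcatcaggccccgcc
Tgtp1 (chr11:48883116-48883175, minus strand): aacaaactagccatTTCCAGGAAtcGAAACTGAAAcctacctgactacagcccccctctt
Tgtp2 (chr11:48955075-48955134, minus strand): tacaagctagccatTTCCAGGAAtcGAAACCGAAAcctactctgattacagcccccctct
The ISRE match lay 64 bases before the start in *Irgm2*, 34 in *Igtp*, 77 in *Tgtp1* and 70 in *Tgtp2*. In *Irgm1* it lay next to the start, with 2 overlapping matches at 30 and 24 bases. The aligned promoters of *Igtp* and *Irgm2* were 72.8% identical and those of *Tgtp1* and *Tgtp2* 66.0%. Matches depend on the start that is taken. With GENCODE's canonical starts the joined motif was found in the windows of 3 of 6 members (*Irgm2*, *Tgtp1* and *Tgtp2*). The canonical start of *Irgm2* lies beside *Igtp*, so its match there is the same genomic stretch that is printed above for *Igtp*, and the stretch printed for *Irgm2* lies outside its GENCODE window. With the GENCODE starts *Igtp* held no match to either core or to the joined motif, and *Ifi47* held matches to both cores that its RefSeq promoter lacked. A match is a description of the letters and does not show that a factor binds there.

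Reads can split between family members, and the sequences set how far each gene can be told apart. The coding sequences of *Tgtp1* and *Tgtp2* differed at 4 of 1245 bases (99.7% identity). Of all windows of 75 bases, the read length, in their exons, 76.3% for *Tgtp1* and 85.0% for *Tgtp2* occurred elsewhere in the genome. In *Irgm1* and *Ifi47* the share was 0%, in *Iigp1* 1.53%, in *Igtp* 6.64% and in *Irgm2* 7.57%. These shares count single windows, whereas the reads came in pairs, and how many pairs could be placed was not tested. *Igtp* and *Irgm2*, whose coding sequences were 65.0% identical, also share a first exon region in the annotation. The values of *Tgtp1* and *Tgtp2* are uncertain as single genes, and their sum is given beside them.

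Library totals ranged from 11936364 to 22788884 counts, so that 3 counts, taken as the smallest signal of a library, correspond to 0.139 to 0.256 CPM (a gene's counts relative to the size of its library, scaled with TMM). Such limits, like the intervals below, cover counting error only. *Park7* lay between 20.6 and 32.1 CPM in the wildtype mice and between 0.457 and 5.38 CPM in the KO mice, with no overlap. Microglial markers were high in every library and all 9 were detected, with a summed level of 24761 to 39694 CPM after PBS and 10606 to 17076 CPM after LPS, and 8 of the 9 were called lower after LPS in each genotype, as were 4 of 6 markers of border-associated macrophages. Monocyte markers summed to 128 to 184 CPM after PBS and 160 to 394 CPM after LPS, and 4 of 5 were called higher in each genotype. Neutrophil markers summed to 17.8 to 161 CPM after PBS and 79.0 to 333 CPM after LPS, with 3 of 7 called higher in wildtype and 4 in KO mice. T and NK cell markers summed to 0.762 to 2.30 CPM after PBS and 1.80 to 20.4 CPM after LPS, and 3 of the 5 tested were called higher in each genotype. By the same rule, given below for the members, 18.4% of all genes were called higher and 17.4% lower in wildtype mice. In KO mice it was 20.1% and 19%. In such mixed RNA, fewer cells of a type and less RNA per cell cannot be told apart. What share of each difference after LPS came from the change in these markers was not tested.

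LPS was followed by higher transcript levels of 6 of the 7 members in both genotypes, with larger fold changes for the effectors than for the regulators. In wildtype mice the effectors rose 11.3-fold to 22.2-fold, the regulators *Irgm1* and *Igtp* 4.39-fold and 4.16-fold, and *Irgm2* was 1.26-fold higher without passing the test. Of all genes tested, 18.4% were called higher in wildtype mice and 20.1% in KO mice by edgeR's quasi-likelihood test, which required |log2FC| ≥ 0.5 and an adjusted p-value below 0.05. The median log2FC over the 7 members was 3.50 in wildtype and 3.06 in KO mice, beside a median over all genes of -0.06 and -0.01. For the same 6 members every LPS value lay above every PBS value of the genotype, a separation shown upwards by 20.8% of genes in wildtype and 16.2% in KO mice.

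**Figure D1:**
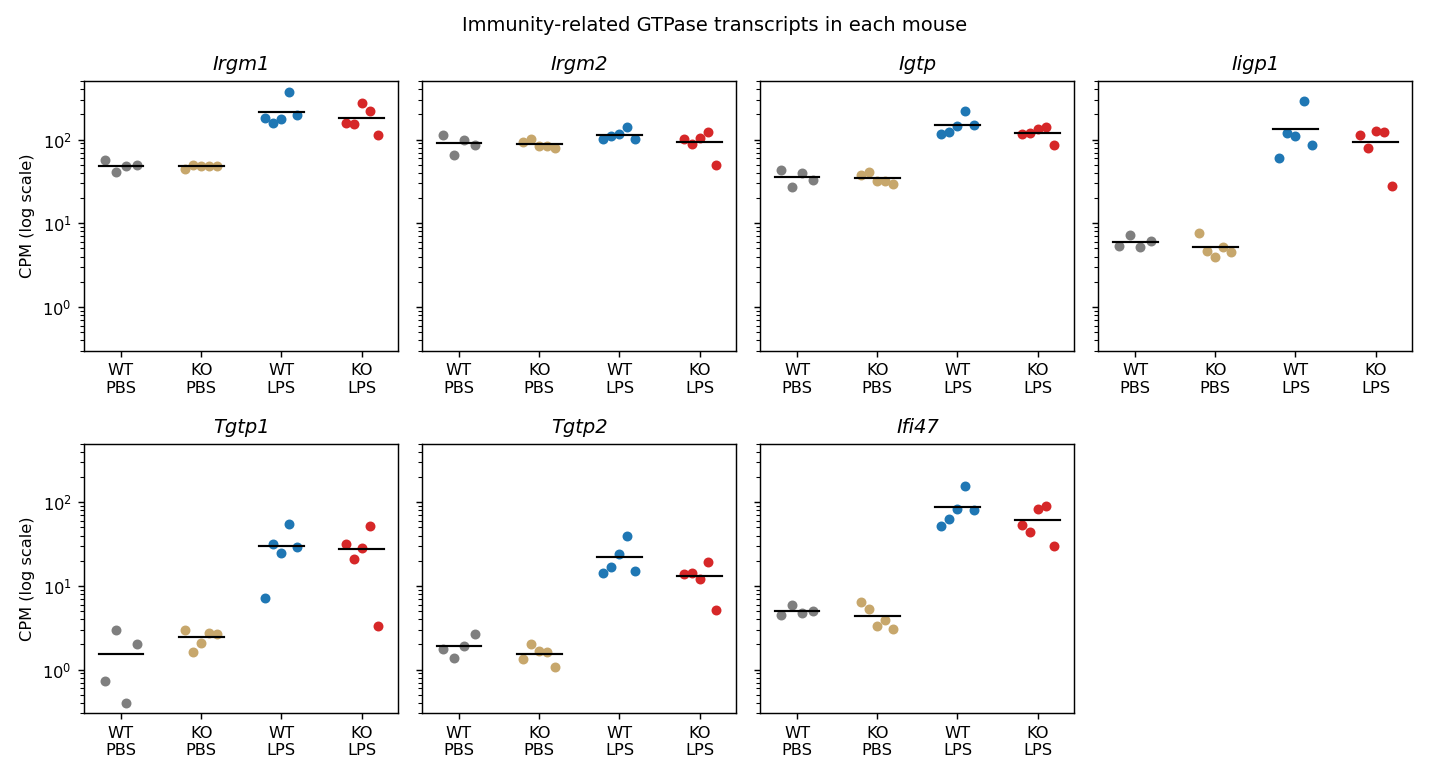
Transcript levels of the 7 immunity-related GTPases (CPM, log axis) in each of the 19 mice, grouped by genotype and treatment, with points for mice and lines for group means. The LPS points of 6 genes lie above all PBS points, from 3.32 CPM upwards in *Tgtp1*, whereas those of *Irgm2* overlap the PBS points.

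*Irgm1*, a regulator needed for resistance to intracellular bacteria and for autophagy, stood at 56.3, 40.7, 48.7 and 49.1 CPM in the wildtype PBS mice and at 179, 157, 174, 365 and 195 CPM in the wildtype LPS mice. In KO mice the values were 44.8, 49.4, 48.3, 48.7 and 48.5 CPM after PBS and 160, 154, 271, 219 and 112 CPM after LPS. The groups did not overlap, and wildtype LPS replicate 4 stood far above its group. The log2FC was 2.13 (SE 0.25, adjusted p = 1.52e-06) in wildtype and 1.93 (SE 0.23, adjusted p = 1.30e-06) in KO mice by edgeR's quasi-likelihood test.

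*Igtp* (also named *Irgm3*), a regulator of the endoplasmic reticulum and lipid droplets, stood at 42.7, 27.2, 40.3 and 33.3 CPM in wildtype mice after PBS and at 116, 124, 143, 216 and 147 CPM after LPS. KO mice had 37.9, 41.0, 31.9, 32.1 and 29.6 CPM after PBS and 117, 118, 134, 143 and 86.8 CPM after LPS. Every LPS value lay above every PBS value in both genotypes. The log2FC was 2.06 (SE 0.19, adjusted p = 9.96e-08) in wildtype and 1.80 (SE 0.18, adjusted p = 1.29e-07) in KO mice.

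*Irgm2*, the regulator of Golgi membranes, was the exception. It stood at 112, 65.1, 99.5 and 85.9 CPM in wildtype mice after PBS and at 100, 111, 116, 141 and 102 CPM after LPS. KO mice had 92.4, 102, 83.8, 84.7 and 79.5 CPM after PBS and 102, 87.3, 105, 122 and 49.2 CPM after LPS. The ranges overlapped in both genotypes, and the lowest value of all was in the KO LPS mouse, replicate 5. The log2FC was 0.33 (SE 0.20, adjusted p = 0.199) in wildtype and 0.07 (SE 0.19, adjusted p = 0.792) in KO mice by edgeR's test, and a p-value that misses the threshold does not show that the level stayed the same. *Igtp*, its neighbour on the same strand whose RefSeq promoter, but not its GENCODE window, holds the same joined motif, rose in the same libraries. After PBS, *Irgm2* had the highest level of the family per kb of exon, although it overlapped *Irgm1* per kb of the canonical transcript.

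*Iigp1* (Irga6), the only member on chromosome 18, is an effector and usually among the first IRG proteins on a parasite vacuole. It stood at 5.32, 7.21, 5.26 and 6.21 CPM in wildtype mice after PBS and at 60.1, 119, 109, 290 and 87.2 CPM after LPS. KO mice had 7.61, 4.62, 3.96, 5.19 and 4.59 CPM after PBS and 113, 79.3, 125, 123 and 27.5 CPM after LPS. Even the lowest LPS value, in KO replicate 5, lay above all 9 PBS values. The log2FC was 4.47 (SE 0.48, adjusted p = 5.45e-07) in wildtype and 4.17 (SE 0.43, adjusted p = 2.58e-07) in KO mice, the highest of the family in both genotypes.

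*Ifi47* (Irgd), an effector, stood at 4.48, 5.88, 4.80 and 5.03 CPM in wildtype mice after PBS and at 52.5, 62.5, 82.8, 156 and 80.6 CPM after LPS. KO mice had 6.44, 5.36, 3.30, 3.93 and 3.03 CPM after PBS and 53.6, 44.1, 83.8, 90.9 and 30.4 CPM after LPS. The groups were well apart, and the lowest LPS value was again that of KO replicate 5. The log2FC was 4.11 (SE 0.38, adjusted p = 8.98e-08) in wildtype and 3.78 (SE 0.34, adjusted p = 4.73e-08) in KO mice.

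*Tgtp1* and *Tgtp2* both encode Irgb6, an effector that binds vacuole membranes early. *Tgtp1* stood at 0.730, 2.97, 0.394 and 2.05 CPM in wildtype mice after PBS and at 7.10, 31.9, 24.8, 55.6 and 28.8 CPM after LPS. KO mice had 2.95, 1.62, 2.08, 2.78 and 2.7 CPM after PBS and 31.9, 20.9, 28.1, 52.3 and 3.32 CPM after LPS. The groups did not overlap, although KO LPS replicate 5 came close to the PBS values. The log2FC was 4.27 (SE 0.71, adjusted p = 7.82e-05) in wildtype and 3.50 (SE 0.62, adjusted p = 1.16e-04) in KO mice. *Tgtp2* stood at 1.77, 1.39, 1.91 and 2.67 CPM in wildtype mice after PBS and at 14.1, 16.7, 24.3, 39.3 and 15.2 CPM after LPS. KO mice had 1.35, 2.03, 1.68, 1.62 and 1.08 CPM after PBS and 13.9, 14.4, 12.1, 19.4 and 5.20 CPM after LPS. Here too no LPS value reached down to a PBS value. The log2FC was 3.50 (SE 0.39, adjusted p = 6.91e-07) in wildtype and 3.06 (SE 0.35, adjusted p = 7.56e-07) in KO mice. With both genes counted as 1, the log2FC was 3.89 (SE 0.50, adjusted p = 3.98e-06) in wildtype and 3.34 (SE 0.44, adjusted p = 4.56e-06) in KO mice.

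The make-up of the family's reads differed after LPS. The 7 genes summed to 150 to 224 CPM after PBS, to 529 to 1265 CPM in wildtype mice after LPS and to 315 to 769 CPM in KO mice after LPS. The 3 regulators held 88.4% to 94.5% of that sum in the PBS mice and 57.2% to 78.9% in the LPS mice, without overlap. Per kb of exon, the level of *Irgm2* was the highest in wildtype PBS mice (24.2 ± 5.41 CPM per kb, SD, n = 4), and it did not overlap *Igtp* (7.87 ± 1.55), the next. *Igtp* overlapped *Irgm1* (7.66 ± 1.00). *Ifi47* (1.77 ± 0.210) lay apart from the regulators and from *Iigp1* (0.942 ± 0.144), and the ranges of *Iigp1*, *Tgtp2* (0.659 ± 0.182) and *Tgtp1* (0.470 ± 0.365) overlapped from each to the next. After LPS the order in wildtype mice was *Irgm1* (33.7 ± 13.5 CPM per kb, SD, n = 5), *Igtp* (32.8 ± 8.71), *Ifi47* (30.6 ± 14.4), *Irgm2* (30.5 ± 4.39), *Iigp1* (20.9 ± 14.3), *Tgtp1* (9.07 ± 5.32) and *Tgtp2* (7.47 ± 3.58), and each overlapped the next. KO mice followed the same order after LPS except that *Irgm2* (24.9 ± 7.33) stood above *Ifi47* (21.3 ± 9.12). In KO mice after PBS, *Irgm2* was again first (23.7 ± 2.39) and did not overlap *Igtp* (7.57 ± 1.05), and *Irgm1* followed (7.54 ± 0.284). *Ifi47* (1.55 ± 0.510) did not overlap *Irgm1* there, and *Iigp1* (0.816 ± 0.223), *Tgtp1* (0.742 ± 0.171) and *Tgtp2* (0.528 ± 0.122) each overlapped the gene before it. Lengths were summed over all annotated exons. Per kb of the canonical transcript, *Irgm2* (26.0 ± 5.80 CPM per kb) overlapped *Irgm1* (23.4 ± 3.05) in wildtype mice after PBS. After LPS that length changed the order in wildtype mice to *Irgm1* (102.5 ± 41.1 CPM per kb), *Igtp* (65.4 ± 17.4), *Ifi47* (50.9 ± 23.9), *Iigp1* (43.8 ± 29.9) and *Irgm2* (32.8 ± 4.71), with *Irgm2* at 28.8 to 40.5 and *Irgm1* at 75.1 to 175 CPM per kb, without overlap.

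**Figure D2:**
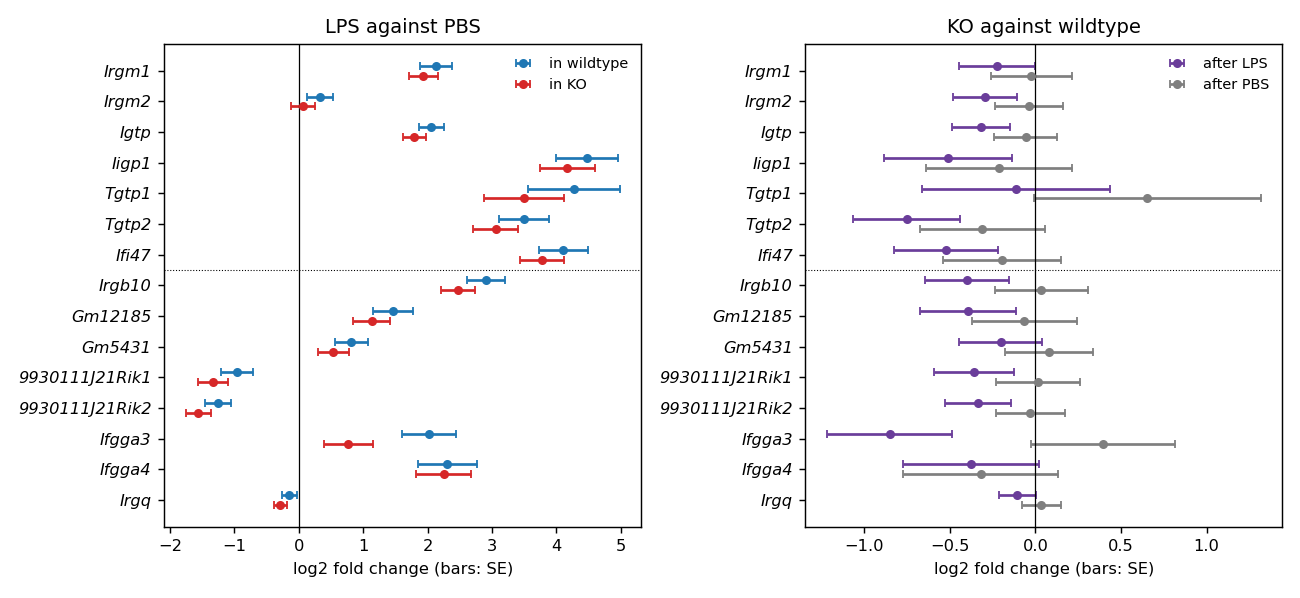
Log2FC with SE of the 7 members (above the dotted line) and of 8 other IRG genes (below it), for LPS against PBS in wildtype and KO mice (left) and for KO against wildtype after LPS and after PBS (right). In the left panel 6 members lie between 1.80 and 4.47 and *Irgm2* near 0, and in the right panel all 7 members lie between -0.75 and -0.12 after LPS.

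After LPS, all 7 members were lower on average in KO than in wildtype mice, but 1 of 7, *Tgtp2*, passed the study's threshold of |log2FC| ≥ 0.5 with an unadjusted p-value below 0.05. Of all genes tested, 0.763% were called lower by that rule. The log2FC of *Tgtp2* was -0.75 (SE 0.31, unadjusted p = 0.0270, adjusted p = 1), and the groups overlapped, with KO replicates 2 (14.4 CPM) and 4 (19.4 CPM) inside the wildtype range of 14.1 to 39.3 CPM and the other 3 below it. The call kept its side of the threshold in 7 of the 10 fits that left out 1 LPS mouse (unadjusted p from 0.0107). It did so too under 5 of 7 other settings that kept *Tgtp1* and *Tgtp2* apart. With the replicate number, which does not mark shared animals, as a block, the unadjusted p was 0.00394 by edgeR's test. The call was lost under the others and with the 2 genes summed. Without wildtype LPS replicate 4 the log2FC was -0.43 (unadjusted p = 0.154), without KO LPS replicate 5 it was -0.55 (unadjusted p = 0.0616) and without wildtype LPS replicate 3 it was -0.71 (unadjusted p = 0.0527), all by edgeR's test. With *Tgtp1* and *Tgtp2* counted together it was -0.35 (SE 0.40, unadjusted p = 0.383), and with only the 2 LPS groups in the fit it was -0.75 (unadjusted p = 0.0656).

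The other members did not pass. The log2FC was -0.52 (SE 0.30, unadjusted p = 0.0997) for *Ifi47*, -0.51 (SE 0.37, unadjusted p = 0.190) for *Iigp1* and -0.12 (SE 0.55, unadjusted p = 0.835) for *Tgtp1*. The regulators stood at -0.32 (SE 0.17, unadjusted p = 0.0775) for *Igtp*, -0.30 (SE 0.19, unadjusted p = 0.128) for *Irgm2* and -0.22 (SE 0.22, unadjusted p = 0.326) for *Irgm1*, all by edgeR's test. The median over the members was -0.32, beside 0.02 over all genes, and the groups overlapped for every member. The differences depend on single mice. Leaving out wildtype LPS replicate 4 turned the sign of *Irgm1* (0.06) and *Tgtp1* (0.24) and left *Iigp1* at -0.0047 (unadjusted p = 0.9885), *Igtp* at -0.15 and *Ifi47* at -0.20 (unadjusted p = 0.476), and leaving out KO LPS replicate 5 turned that of *Tgtp1* (0.17) and left *Irgm2* at -0.14. In the other direction, *Ifi47* passed the threshold without KO LPS replicate 4 (-0.71, unadjusted p = 0.0371) and without wildtype LPS replicate 1 (-0.66, unadjusted p = 0.0442).

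After PBS no member passed the threshold in KO against wildtype mice, beside 0.224% of genes called higher and 0.576% called lower. The log2FC ranged from -0.31 for *Tgtp2* (SE 0.36) to 0.65 for *Tgtp1* (SE 0.66), and the other 5 members lay between -0.21 and -0.02. In the test of whether the response to LPS differed between the genotypes, the interaction, all 7 estimates were negative, from -0.77 (SE 0.86, unadjusted p = 0.381) for *Tgtp1* to -0.20 (SE 0.32, unadjusted p = 0.545) for *Irgm1*, with a median of -0.30. Without wildtype LPS replicate 4 the estimate was positive for *Irgm1* (0.08) and *Iigp1* (0.21). No member and no gene of the 18739 had an adjusted p-value under 0.05 in edgeR's test of the interaction. At an unadjusted p-value under 0.05 there were 0 members and 180 genes (0.961%).

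The spread between mice after LPS was shared by the family. In KO LPS replicate 5 all 7 members lay below the group mean, by 0.44 to 2.56 on the log2 scale in size, with a mean deviation of -1.16. In wildtype LPS replicate 1 all 7 also lay below it (mean deviation -0.65), and in wildtype LPS replicate 4 all 7 lay above it (0.88). All 7 lay above the mean in KO LPS replicates 3 (0.39) and 4 (0.63). In the PBS mice mean deviations stayed between -0.17 and 0.20. Across the 19 libraries, the deviation of each member correlated with the mean of the other 6 with a Pearson r of 0.70 for *Tgtp1* to 0.94 for *Iigp1*, as a description over mice that share depth and cell composition.

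**Figure D3:**
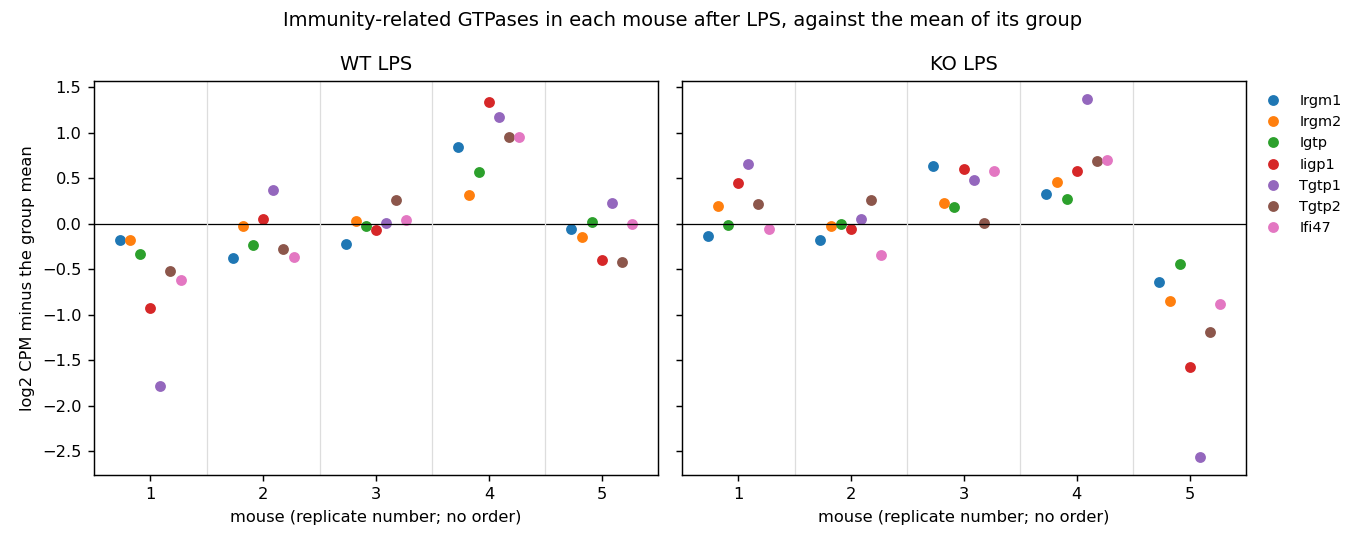
Log2 CPM of each of the 7 members in each LPS mouse minus the mean of its group, for wildtype (left) and KO (right) mice, with 1 point per gene. All 7 points of KO replicate 5 and wildtype replicate 1 lie below 0, and all 7 of wildtype replicate 4 and KO replicates 3 and 4 lie above it, with *Tgtp1* lowest at -2.56.

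Markers of other cells differed between these mice as well. Endothelial markers summed to 69.8 CPM in KO LPS replicate 5 and to 136 CPM in wildtype LPS replicate 1, the 2 lowest of all 19 libraries, and to 271 to 668 CPM in the other 8 LPS mice. Both mice also had the lowest astrocyte (282 and 401 CPM) and neuron (17.0 and 26.1 CPM) sums of their groups, whereas the oligodendrocyte sum was the lowest of its group in wildtype replicate 1 (477 CPM) and the median of its group in KO replicate 5 (1620 CPM). Microglial sums were 16804 CPM in KO LPS replicate 5 and 17076 CPM in wildtype LPS replicate 1, and lowest in wildtype LPS replicate 4 (10606 CPM, the lowest of all 19 libraries) and, among KO LPS mice, in replicate 4 (10977 CPM), in which the members were high. Other mice did not follow this. KO LPS replicate 2 had 17021 CPM with a mean deviation of the members of -0.04, and wildtype LPS replicate 5 had 11053 CPM with -0.11. Wildtype LPS replicate 4 did not stand apart by endothelial markers (501 CPM). It had the highest sums of monocyte (394 CPM), neutrophil (333 CPM) and T and NK cell (20.4 CPM) markers of all libraries. T and NK cell markers summed to 5.20 to 20.4 CPM in wildtype and 1.80 to 9.23 CPM in KO mice after LPS. Of the 5 tested, 2 were called lower in KO mice by the threshold on the unadjusted p-value, beside 0.763% of all genes. Monocyte markers summed to 265 to 394 CPM (median 324) in wildtype and 160 to 345 CPM (median 205) in KO mice after LPS, with KO replicates 1, 2 and 5 below every wildtype value, and 0 of the 5 were called between the genotypes. *Ifng* encodes the interferon that most strongly induces the family and is made by T and NK cells. It had 10, 1, 19, 25 and 8 counts in the wildtype LPS mice. In the KO LPS mice it had 0, 1, 1, 5 and 0 counts. It did not pass the filter on low counts and was not tested. The part of these cells in the members' levels was not tested.

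The split of counts between *Tgtp1* and *Tgtp2* differed between mice of the same group beyond counting error. The share of *Tgtp2* was 70.8%, 31.9%, 82.9% and 56.6% in the wildtype PBS mice and 66.6%, 34.4%, 49.5%, 41.4% and 34.5% in the wildtype LPS mice. In KO mice it was 31.4%, 55.7%, 44.6%, 36.9% and 28.6% after PBS and 30.4%, 40.8%, 30.1%, 27.1% and 61.0% after LPS. It was highest after LPS in wildtype replicate 1 (95% Wilson interval 61.5% to 71.3%) and KO replicate 5 (52.0% to 69.3%), the mice with the lowest endothelial sums, and lowest in KO replicate 4 (24.7% to 29.6%). In the wildtype PBS mice, in replicate order, endothelial sums were 258, 818, 364 and 551 CPM, so that the lowest share came with the highest sum. In the KO PBS mice they were 731, 408, 371, 349 and 397 CPM, and the lowest share came with the third highest sum. The ranges of the 4 groups overlapped, and whether the split is one of transcripts or of read assignment was not tested.

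**Figure D4:**
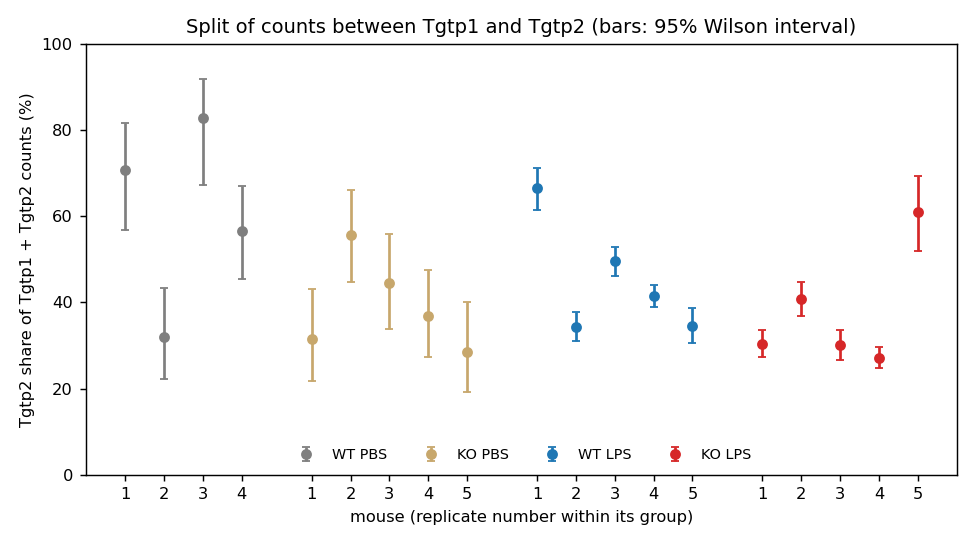
Share of *Tgtp2* (%) among the counts of *Tgtp1* and *Tgtp2* in each of the 19 mice, with 95% Wilson intervals for counting error. Shares run from 27.1% to 82.9%, and the 2 highest LPS mice are wildtype replicate 1 (66.6%) and KO replicate 5 (61.0%).

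Other IRG genes, 7 of them in the same regions of chromosomes 11 and 18 and *Irgc* and *Irgq* on chromosome 7, did not all follow. Of the 9 found in the table, 8 were tested, and in wildtype mice 5 were called higher and 2 lower after LPS, where 17.4% of all genes were called lower. *Irgb10* (*Gm12250*), an effector that also attacks bacteria, rose 7.51-fold (log2FC 2.91, SE 0.29, adjusted p = 2.17e-07), *Gm12185* 2.75-fold, *Gm5431* 1.76-fold, *Ifgga4* 4.94-fold and *Ifgga3* 4.05-fold. The tandem genes *9930111J21Rik1* and *9930111J21Rik2*, which lie between members on chromosome 11, fell after LPS in both genotypes. Their log2FC was -0.96 (SE 0.25) and -1.25 (SE 0.20) in wildtype and -1.33 (SE 0.24) and -1.56 (SE 0.20) in KO mice. They share 74.7% and 70.0% of their windows with other places of the genome, mostly with each other, so the pair is better read together. *Irgq*, a distant family member without the interferon response, had a log2FC of -0.14 (SE 0.11, adjusted p = 0.345) in wildtype mice by edgeR's test. In KO mice it was -0.28 (SE 0.11, adjusted p = 0.0384), which missed the call by the size of the change. Its wildtype LPS values, at most 48.8 CPM, lay just below its wildtype PBS values, at least 48.9 CPM. *Irgc*, known from testis, stayed at or under 0.505 CPM and was not tested. In KO mice 3 were called higher and 2 lower, where 19% of all genes were called lower. *Gm5431* (0.54, adjusted p = 0.0788) and *Ifgga3* (0.77, adjusted p = 0.103) did not pass there. After LPS *Ifgga3* was lower in KO than in wildtype mice (log2FC -0.85, SE 0.36, unadjusted p = 0.0308, adjusted p = 1), at 0.433 to 2.29 CPM against 2.04 to 4.49 CPM. Its interaction had an unadjusted p of 0.0372 and an adjusted p of 1.00 by edgeR's test. After PBS none of the 8 passed.

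The genes that act with the family were read from lists. Of 10 guanylate-binding proteins tested, large interferon-inducible GTPases that act on the same vacuoles, 9 were called higher after LPS in wildtype and 8 in KO mice, among them *Gbp2* (log2FC 4.88, SE 0.36), *Gbp5* (4.13, SE 0.34) and *Gbp7* (1.62, SE 0.15) in wildtype mice. After LPS 9 of the 10 had a negative log2FC in KO against wildtype mice. By edgeR's test 1 passed, *Gbp8* (-0.99, SE 0.40, unadjusted p = 0.0237), beside 0.763% of all genes called lower. The adjusted p-value of *Gbp8* did not pass. Of 13 interferon signalling genes tested, 7 were called higher after LPS in each genotype. Among them in wildtype mice were *Stat2* (2.40, SE 0.20) and *Irf9* (1.45, SE 0.13), which bind the ISRE together in 1 complex, and *Irf1* (1.81, SE 0.24), another ISRE-binding factor. None of the receptor subunits *Ifngr1*, *Ifngr2*, *Ifnar1* and *Ifnar2* was called in wildtype mice (0.01 to 0.29). None of the 13 passed in KO against wildtype mice after LPS or after PBS, with medians of -0.05 and -0.04. Of 10 autophagy conjugation genes, whose products place the family's effectors on vacuoles, *Atg16l1* was called higher (0.53, SE 0.13) and *Gabarapl2* (-0.71, SE 0.15) and *Map1lc3a* (-0.83, SE 0.24) lower after LPS in wildtype mice, and 1 was called higher and 2 lower in KO mice, beside 18.4% of all genes called higher and 17.4% lower in wildtype and 20.1% and 19% in KO mice. All 3 ubiquitin adaptors and ligases of the vacuole, *Trim21* (0.99, SE 0.15), *Traf6* (0.62, SE 0.18) and *Sqstm1* (0.50, SE 0.18), were called higher in wildtype mice and in KO mice too. No gene of these last 2 lists passed in KO against wildtype mice. After LPS all 10 autophagy conjugation genes had a positive log2FC there (0.02 to 0.45, median 0.11).

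The genes most like the family in their spread between mice were found by the correlation of log2 CPM deviations from the group means with the mean deviation of the members, over 19 libraries and 15782 genes with a mean of at least 1 CPM. The first was *Gbp3*, with a Pearson r of 0.96, and 0.93 without the 2 libraries farthest from the median. It was followed by *Dcn* (0.91), *Tnfsf10* (0.91), *Serpinb6a* (0.90), *Tbrg1* (0.89), *Gbp9* (0.89), *Mospd1* (0.89), *Nhsl2* (0.89), *Cyp1b1* (0.89) and *Prss23* (0.89). *Gbp3* and *Gbp9* are guanylate-binding proteins, *Tnfsf10* encodes the death ligand TRAIL, and *Dcn* encodes decorin, a matrix protein of fibroblasts. Without KO LPS replicate 5 and wildtype LPS replicate 4, r of the 9 genes after *Gbp3* was 0.73 to 0.83, and in the PBS mice alone that of *Nhsl2* was -0.16. The points share libraries, depth and cell composition, and the ranking is a description.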

How the data were processed

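Stranded total RNA libraries were sequenced by the authors, who removed adapters (Cutadapt), then used STAR 2.7.9a for alignment to GRCm39 and for counting. Deposited were the raw counts of each Ensembl gene in 19 libraries, without normalization, each used as 1 replicate since no 2 libraries of a group were alike within sampling noise. Samples were grouped by the labels. How STAR assigned reads with several matches was not given in the sources used here.

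The test was that of edgeR 4.0.16 in R 4.3.3 (filterByExpr, minimum count 10, TMM, 1 quasi-likelihood fit with 4 groups), and p-values were adjusted over all 18739 genes with the Benjamini-Hochberg method. The SE is the log2FC divided by the square root of F. Thresholds followed the study. Log2 CPM used a prior count of 2. The tests were checked on simulated data. Alternatives were no filter, at least 10 counts in every library, DESeq2 1.42.0 or its size factors, the replicate number as a block, only the groups compared, *Tgtp1* and *Tgtp2* summed, an adjusted threshold and each mouse left out. The canonical transcript length was added after seeing the data.

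Named were all members, *Park7*, every other IRG gene, list genes called between genotypes or with the smallest p-values after LPS in wildtype mice, and the 10 most similar genes. The interferon receptor subunits and *Ifng* were named after their values were seen. Members and lists were chosen with earlier results of these data known. 1 gene of the interferon signalling list is counted but not reported by name here. *Ifgga2* had no match in the table.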

Additional observations from a re-analysis of the deposited data

Results flagged for a closer look

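In 36 groups of 4 or 5 mice (each member, the family's sum and the *Tgtp2* share in each group), 4 held a value far from the rest by Dixon's criterion, and chance gives about 1 in 20. Wildtype LPS replicate 4 was the highest for *Irgm1* (365 CPM, gap over range 0.816), for *Iigp1* (290 CPM, 0.745) and for the sum of the 7 members (1265 CPM, 0.803), which are not independent. In the KO PBS mice *Irgm1* was lowest in replicate 1 (44.8 CPM, 0.748), in a group whose range was 44.8 to 49.4 CPM. No difference between genotypes in the response to LPS met the adjusted threshold.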

How the results depend on the processing

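The 6 members called higher after LPS kept their call and direction in both genotypes under every alternative in which they were tested, and *Irgm2* was called in none. *Tgtp1* drops out where 10 counts are required in every library.

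The call of 1 member (*Tgtp2*) lower in KO mice after LPS was kept with no filter, with 10 counts in every library, with DESeq2's size factors, with DESeq2 and with the replicate block. The count was 0 with *Tgtp1* and *Tgtp2* summed, 0 with only the 2 groups compared and 0 at an adjusted p-value under 0.05, and 0 to 2 when each mouse was left out in turn. Counts over all genes moved too. Without a low-count filter, 347 genes were higher and 507 lower after LPS, and 241 and 439 after PBS. With at least 10 counts in every library, where fewer genes are tested, it was 42 and 69 after LPS and 6 and 52 after PBS. With only the 2 groups, 36 were higher and 69 lower after LPS. At an adjusted p-value under 0.05 it was 0 and 2 after LPS and 0 and 1 after PBS. Leaving out each mouse gave 100 to 204 higher and 105 to 270 lower after LPS, and 30 to 94 higher and 67 to 153 lower after PBS. The cause of these shifts was not tested.

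Estimates near 0 changed sign when single mice were left out. For *Irgm2* in LPS against PBS of KO mice the range was -0.032 to 0.23. For KO against wildtype after LPS it was -0.41 to 0.058 for *Irgm1* and -0.49 to 0.24 for *Tgtp1*. For the interaction it was -0.38 to 0.081 for *Irgm1* and -0.48 to 0.21 for *Iigp1*, both positive without wildtype LPS replicate 4. After PBS it was -0.094 to 0.055 for *Irgm1*, -0.16 to 0.085 for *Irgm2* and -0.16 to 0.040 for *Igtp*.

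Replicate numbers do not mark shared animals. Deviations of same-numbered mice correlated with a mean r of 0.33 for LPS against PBS in wildtype and 0.25 in KO mice. Between genotypes the mean r was -0.10 after LPS and -0.006 after PBS. In each comparison at least 1 pair of same-numbered mice correlated under 0.1. Whether same-numbered mice of a genotype shared a batch was not tested. Blocking on that number gave 189 genes lower in KO mice after PBS, and the log2FC there became 0.042 for *Irgm1*, 0.072 for *Irgm2* and 0.0047 for *Igtp*. The block changed no call of a member. A mouse correlated best with the mouse of its own number in 5 of 8 cases for LPS in wildtype and 6 of 10 for LPS in KO mice. Between genotypes it was 1 of 10 after LPS and 3 of 8 after PBS. DESeq2's size factors moved no member's level by more than 1 SD. Depth limits *Tgtp1* and *Tgtp2* after PBS, where libraries held 6 to 53 and 20 to 44 counts.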
